A study of Mus musculus with 23 samples.

Results

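Of the 24454 genes in the deposited count table, 47 were read as mitosis genes. They were chosen by symbol, for what their proteins do in cell division, with earlier results of these data known. By role, 7 build or compact chromosomes, 7 are cyclins, kinases and other proteins of mitotic entry, and 4 form the chromosomal passenger complex. Another 7 belong to the centromere and kinetochore, 8 act in the spindle checkpoint and at anaphase, 9 are spindle motors and microtubule proteins, and 5 act in cytokinesis. All 47 had counts in each of the 23 libraries and passed the filter on low counts in both library protocols.

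Dividing cells make most of the RNA of these genes late in the cell cycle, between the end of DNA replication and the split into daughter cells. In resting cells many of them are held off by the DREAM complex. In cycling cells B-Myb and FoxM1 switch them on through a promoter site named the CHR element, together with NF-Y at the CCAAT box. Most long-term stem cells of adult marrow rest, whereas megakaryocyte progenitors divide and later pass through endomitosis, in which the DNA is copied again without the cell splitting. In RNA from bulk samples, fewer cells in mitosis and less mitotic RNA per cell cannot be told apart.

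The cells came from the marrow of C57BL/6 mice that were WT or SclCre;V617F, also labelled SF1. In the latter, Cre under regulatory sequence of Scl (Tal1), a gene of blood stem and progenitor cells, becomes active with tamoxifen and switches on JAK2-V617F, the overactive kinase of myeloproliferative neoplasms. Tamoxifen was given on 5 days to both genotypes, WT included, and marrow was taken 12 weeks later. The age of the mice, and whether a library pools several mice, are not given in the sources used here. Long-term stem cells (LT-HSC) were sorted as cells with Kit, Sca-1 and CD150 and without lineage markers or CD48, and CD41-negative and CD41-positive HSC are the parts of that gate without and with CD41. Megakaryocyte progenitors (MkP) carry Kit, CD150 and CD41 and lack Sca-1 and lineage markers. Each genotype had 3 libraries per population, except WT CD41-positive HSC with 2. The labels give male for all V617F LT-HSC libraries and for V617F library 2 of each CD41 fraction, and female for all others. SMART-Seq v4 was used for the CD41 fractions and SMART-Seq v2 for LT-HSC and MkP, so each pair of populations was scaled and tested apart from the other pair. The counts are per gene and do not show the JAK2 allele.

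Total counts ran from 17579314 to 49191435 per library, with a median of 22196210. Levels are given in CPM, a gene's counts as a share of the library total after TMM scaling. Itga2b, which encodes CD41, stood at 855 ± 86.1 CPM in WT CD41-positive HSC (SD, n = 2) and at 187 ± 42.6 in WT CD41-negative HSC (n = 3), and Ly6a, which encodes Sca-1, reached at most 2.57 CPM in MkP. Some libraries stood apart. Lars2, a mitochondrial tRNA synthetase gene, was at 15742 and 16145 CPM in CD41-negative WT libraries 1 and 3, against 968 in WT library 4 and 1020 to 1260 in the V617F libraries. In LT-HSC WT library 30, Kit was at 153 CPM, against 1037 and 930 in the other WT libraries. The summed level of 15 granulocyte and neutrophil markers was 3791 to 6962 CPM in WT LT-HSC against 481 to 1200 in V617F LT-HSC, and 8476 to 12369 in WT MkP against 1169 to 2667 in V617F MkP. In 13 of the 18 libraries labelled female, all 11 WT libraries among them, Y-linked Ddx3y (13.2 to 61.7 CPM) stood beside Xist, and in the other 5 it was at most 0.272 CPM. The sex label therefore did not match the RNA of those 13, and no genotype comparison can be made without them. In the CD41 fractions Ddx3y was at 29.4 to 44.1 CPM in WT and at most 0.272 in V617F libraries 1 and 3. V617F library 2 was at 160 CPM in the negative and 134 in the positive fraction, so sex-linked RNA differed between genotypes there too.

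Within each protocol the mitosis genes stood higher in 1 population than in the other, CD41-positive above CD41-negative HSC and MkP above LT-HSC. Levels are not compared across the protocols. Their summed level was 2156, 2187 and 2818 CPM in the WT CD41-negative libraries 1, 3 and 4 (2387 ± 373, SD, n = 3) and 3081, 2904 and 3690 CPM in the V617F libraries (3225 ± 413, n = 3). In CD41-positive HSC it was 7199 and 8128 CPM in WT (7663 ± 657, n = 2) and 9026, 9129 and 10484 CPM in V617F (9546 ± 814, n = 3). The V617F libraries lay above the WT libraries in both fractions, and the fractions themselves were far apart. In the SMART-Seq v2 libraries the sum was 6216, 4255 and 3676 CPM in WT LT-HSC (4716 ± 1331, n = 3) and 3920, 3898 and 4065 CPM in V617F LT-HSC (3961 ± 91.0, n = 3). In MkP it was 10449, 10436 and 10491 CPM in WT (10459 ± 28.6, n = 3) and 8106, 8361 and 8917 CPM in V617F (8461 ± 415, n = 3). Here the genotypes overlapped in LT-HSC, and in MkP every V617F library lay below every WT library. The V617F to WT ratio of the LT-HSC means was 0.84 after TMM scaling and 1.08 without scaling, so its direction depends on the scaling. No p is given for the sum, because the genes were chosen with earlier results of these data known.

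**Figure D1:**
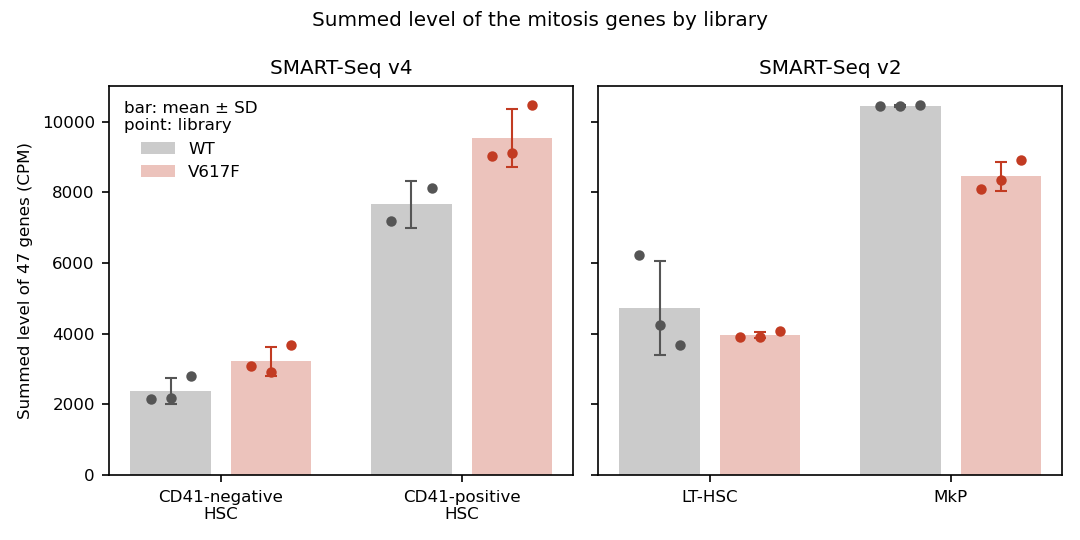
Summed level of the 47 mitosis genes in CPM (vertical axis, from 0) in each library (points), with the mean and SD of each group (bars), WT in grey and V617F in red, for SMART-Seq v4 (left) and v2 (right). The CD41-positive libraries lie between 7199 and 10484 CPM and the CD41-negative ones between 2156 and 3690, and LT-HSC WT library 30, at 6216 CPM, is the highest LT-HSC library.

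Compared between genes, levels are given per kilobase of gene length. Bub3, which encodes a checkpoint protein that also has roles outside mitosis, was the highest of the 47 in 6 of the 8 groups, at 72.9 ± 13.8 CPM per kb in WT CD41-negative HSC and 138 ± 9.71 in WT CD41-positive HSC. In V617F CD41-positive HSC, Ube2c, the ubiquitin-conjugating enzyme of the anaphase-promoting complex, came first at 181 ± 32.3 CPM per kb, followed by the cyclin gene Ccna2 at 159 ± 15.9 and Bub3 at 157 ± 9.63. The differences were smaller than the SD of Ube2c and larger than those of the other 2. In WT CD41-positive HSC, Ube2c, at 122 and 134 CPM over 931 bases, lay below Bub3 by less than the SD of Bub3. In WT MkP, Cdc20, the activator of the anaphase-promoting complex, came first at 330 ± 50 CPM per kb, followed by Bub3 at 306 ± 46.4 and the cyclin gene Ccnb2 at 294 ± 41.2, again within their SD. The lowest places were held in most groups by Cenpf, Cenpe and Espl1, which encode 2 large kinetochore proteins and separase, the protease that cuts cohesin. Espl1 was last in all 4 SMART-Seq v2 groups, at 2.01 ± 0.82 CPM per kb in WT LT-HSC and 7.12 ± 7.79 in WT MkP.

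Every mitosis gene was higher in CD41-positive than in CD41-negative HSC, in both genotypes. All 47 rose with an adjusted p under 0.05 in WT, where 15.7% of the 14467 genes tested rose, and all 47 rose in V617F, where 16.4% did. In each genotype every CD41-positive library lay above every CD41-negative library for all 47, against 27.4% of genes tested in WT and 28.4% in V617F. The median fold change was 3.53 in WT (range 1.82 to 6.33) and 3.17 in V617F (1.70 to 5.71). The median log2 fold change of all genes tested was -0.04 in WT and -0.02 in V617F. Markers of other cells also differed between the WT fractions. Of 16 megakaryocyte and platelet markers, 15 of them tested, 11 rose and none fell. Their sums were 2510 to 3113 CPM in CD41-negative and 4264 to 4421 in CD41-positive HSC. Of 15 granulocyte markers, 12 of them tested, 6 fell and none rose, with sums of 116 to 591 and 86.4 to 94.1 CPM. Of 16 erythroid markers 2 rose and 3 fell. Of 10 endothelial and stromal markers, 7 of them tested, 4 rose and none fell. Of 12 monocyte and macrophage markers 1 fell, and of 13 lymphoid markers 1 rose and 1 fell. Over all genes tested, 2277 of 14467 rose and 2640 fell. The part of these markers in the rise of the mitosis genes was not tested. Leaving out any single library left 46 or 47 called in WT and 47 in V617F, and leaving out CD41-negative WT libraries 1 and 3 together left 47 called in WT with a median log2 fold change of 1.52.

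Among genes of chromosome structure, Mki67, which coats mitotic chromosomes and is the usual marker of dividing cells, was at 83.7, 92.1 and 97.6 CPM in WT CD41-negative HSC and at 304 and 339 CPM in WT CD41-positive HSC. It rose 3.53-fold (log2 1.82 ± 0.16 SE, adjusted p = 3.38e-05) in WT. In V617F it went from 117, 99.8 and 140 CPM to 386, 370 and 477 CPM, which was 3.45-fold. Top2a, the topoisomerase that untangles sister chromatids, rose 3.47-fold in WT, to 506 and 570 CPM, and 2.92-fold in V617F, to 638, 652 and 714 CPM. Ncapg, a condensin subunit, was at 25.2, 24.4 and 35.8 CPM in WT CD41-negative HSC and at 120 and 116 CPM in WT CD41-positive HSC, a 4.15-fold rise (adjusted p = 2.26e-05). Its fellow condensin gene Ncapd2 had the smallest change in WT, 1.82-fold (log2 0.86 ± 0.15, adjusted p = 0.0019). The groups of all these genes stood apart without overlap.

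The kinases and cyclins of mitotic entry rose 3.20- to 4.57-fold in WT. Cdk1, the kinase that drives entry, was at 44.3, 50.2 and 62.3 CPM in WT CD41-negative HSC and at 175 and 194 CPM in WT CD41-positive HSC, a 3.53-fold rise (log2 1.82 ± 0.16, adjusted p = 3.04e-05). Its V617F levels were 71.8, 59.5 and 67.6 CPM in the negative and 243, 220 and 282 CPM in the positive fraction. Cdk1 rose 3.74-fold there. Ccnb1, a cyclin partner of Cdk1, rose 4.57-fold in WT, from 20.5, 16.1 and 30.3 CPM to 98.4 and 106 CPM, and 3.65-fold in V617F, from 31.2, 29.2 and 38.6 CPM to 114, 105 and 143 CPM. Plk1, the polo kinase of centrosomes and kinetochores, rose 3.46-fold in WT, to 75.9 and 101 CPM, and 3.93-fold in V617F, to 85.1, 90.6 and 114 CPM. The passenger complex, whose kinase corrects wrong spindle attachments, held the smallest p of all 47 in both genotypes. Birc5 (survivin) was at 35.9, 37.9 and 43.5 CPM in WT CD41-negative HSC and at 149 and 171 CPM in WT CD41-positive HSC, a 4.10-fold rise (log2 2.03 ± 0.155, adjusted p = 2.23e-05), and it rose 4.66-fold in V617F. Aurkb, the kinase of the complex, rose 4.34-fold in WT, from 34.8, 33.9 and 41.5 CPM to 147 and 172 CPM, and 4.17-fold in V617F, from 45.5, 46.8 and 62.1 CPM to 195, 201 and 248 CPM.

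Ube2c had the largest rise of the 47 in both genotypes, from 16.7, 15.0 and 28.9 CPM to 122 and 134 CPM in WT (6.33-fold, log2 2.66 ± 0.26, adjusted p = 4.61e-05) and 5.71-fold in V617F. Cdc20, its partner at anaphase, rose 3.81-fold in WT, from 46.1, 43.7 and 65.3 CPM to 188 and 207 CPM, and 3.34-fold in V617F, from 59.3, 61.8 and 75.3 CPM to 205, 204 and 246 CPM. The checkpoint kinase gene Bub1 rose 3.36-fold in WT, from 27.6, 20.2 and 31 CPM to 81.5 and 95.2 CPM, and 3.23-fold in V617F, from 35.8, 32.6 and 45.4 CPM to 107, 124 and 138 CPM. Bub3 changed less, from 155, 124 and 182 CPM to 277 and 306 CPM in WT (1.89-fold, log2 0.92 ± 0.15, adjusted p = 0.000952), and its 1.70-fold change in V617F was the smallest there. Espl1 rose 2.05-fold in WT and 3.31-fold in V617F, and its WT CD41-negative libraries 1, 3 and 4 lay at 36.6, 56.1 and 30.1 CPM. Of the spindle genes, Kif11, the motor that pushes the poles apart, rose 3.97-fold and 3.17-fold. The kinetochore gene Cenpf rose 3.44-fold and 3.20-fold. The 5 cytokinesis genes had the lowest median log2 fold change of the roles in both genotypes, 1.31 in WT and 1.30 in V617F, and among them Kif20b, a kinesin of the midbody, rose 2.48-fold and 2.53-fold.

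**Figure D2:**
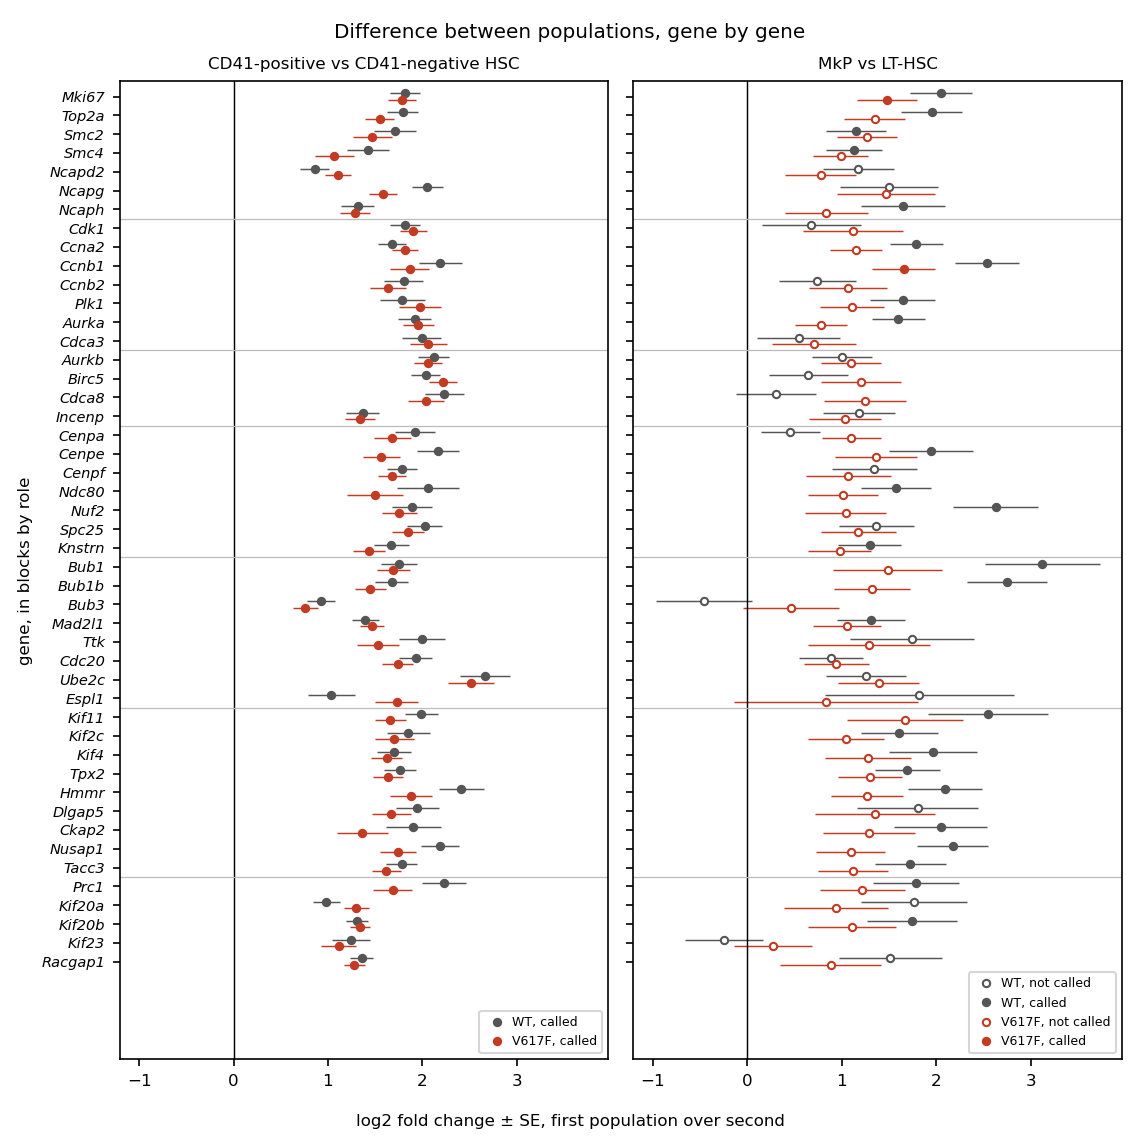
Log2 fold change ± SE (horizontal axis) of each mitosis gene (rows, in blocks by role) between CD41-positive and CD41-negative HSC (left) and between MkP and LT-HSC (right), WT in grey and V617F in red, filled where the adjusted p was under 0.05. All 94 points of the left panel lie right of 0 and are filled, whereas on the right 26 WT and 2 V617F points are filled.

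Promoters of these genes, which moved together between the CD41 fractions, were searched for the sites named above. RefSeq (GRCm38.p6, the same assembly as mm10) gave a window from 250 bases before to 50 after the transcription start for 40 of the 47. Smc4, Ccna2, Aurkb, Incenp, Tpx2, Dlgap5 and Kif20a had no entry. The start used for a window was not always the outer end of the RefSeq gene. That gene runs to 135716450 for Mki67 and begins at 45669891 for Ncapg, so some upstream bases printed for them lie inside it. Distances are counted from the start used for each window. Letters were searched on both strands, as TTTGAA for the CHR element, as CCAAT for the NF-Y box, and as TTTCCCGC or TTTGGCGC for E2F sites. A match describes letters and not a bound site, and TTCAAA and ATTGG, the reverse complements of the first 2, can share an A. The 5 windows that follow, cut to the 150 bases upstream of the start (250 for Ncapg) and written 5′ to 3′ on the gene's strand, belong to the members with the smallest p between WT CD41 fractions that hold both TTTGAA and CCAAT there. Capitals mark TTTGAA and CCAAT on either strand.
Ncapg, chr5:45669675-45669924, + strand: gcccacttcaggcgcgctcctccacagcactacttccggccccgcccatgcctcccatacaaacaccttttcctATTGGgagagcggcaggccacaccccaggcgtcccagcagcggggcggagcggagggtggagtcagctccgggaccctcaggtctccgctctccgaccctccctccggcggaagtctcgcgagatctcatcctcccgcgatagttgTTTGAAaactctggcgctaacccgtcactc
Cdk1, chr10:69352913-69353062, - strand: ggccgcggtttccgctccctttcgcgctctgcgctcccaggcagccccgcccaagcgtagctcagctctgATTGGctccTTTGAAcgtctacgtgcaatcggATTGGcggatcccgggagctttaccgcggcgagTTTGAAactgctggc
Kif11, chr19:37376232-37376381, + strand: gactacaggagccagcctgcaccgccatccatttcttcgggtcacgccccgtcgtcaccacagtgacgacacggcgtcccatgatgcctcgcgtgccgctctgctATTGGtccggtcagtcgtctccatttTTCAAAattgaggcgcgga
Mki67, chr7:135716380-135716529, - strand: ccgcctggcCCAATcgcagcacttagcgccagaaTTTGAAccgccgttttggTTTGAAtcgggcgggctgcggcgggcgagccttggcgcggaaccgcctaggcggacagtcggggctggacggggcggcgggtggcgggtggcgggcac
Cdc20, chr4:118437344-118437493, - strand: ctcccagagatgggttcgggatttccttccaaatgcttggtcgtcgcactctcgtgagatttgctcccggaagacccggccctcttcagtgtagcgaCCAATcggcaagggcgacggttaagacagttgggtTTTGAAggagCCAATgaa

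The Cdk1 window holds TTTGAA at 2 places with an ATTGG ahead of each, and that of Mki67 has TTTGAA at 2 places with a CCAAT ahead of both. In the Ncapg window the single TTTGAA lies close to the start with ATTGG far ahead of it, and in that of Kif11 the box is followed by TTCAAA, the same letters on the other strand. In the Cdc20 window a CCAAT lies on either side of TTTGAA. Over the 40 genes with a window, 75% had TTTGAA (30 of 40, Wilson 95% interval 59.8 to 85.8), against 20.2% of the 27025 genes in the table of windows. CCAAT was in 75% of the members and 41.1% of all genes, and both were in 67.5% of the members (27 of 40) and 7.97% of all genes. The E2F letters were in 5% of the members (2 of 40) and 1.8% of all genes. With a site in overlapping windows of a gene counted once, at its nearest start, 27 of 36 TTTGAA matches lay within 50 bases of the start on either side. Their median was -1 base, whereas the 67 CCAAT matches had a median of -71 bases. With upstream bases alone, TTTGAA was in 37.5% of the members and 18.3% of all genes, since many of its matches lie just after the start.

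**Figure D3:**
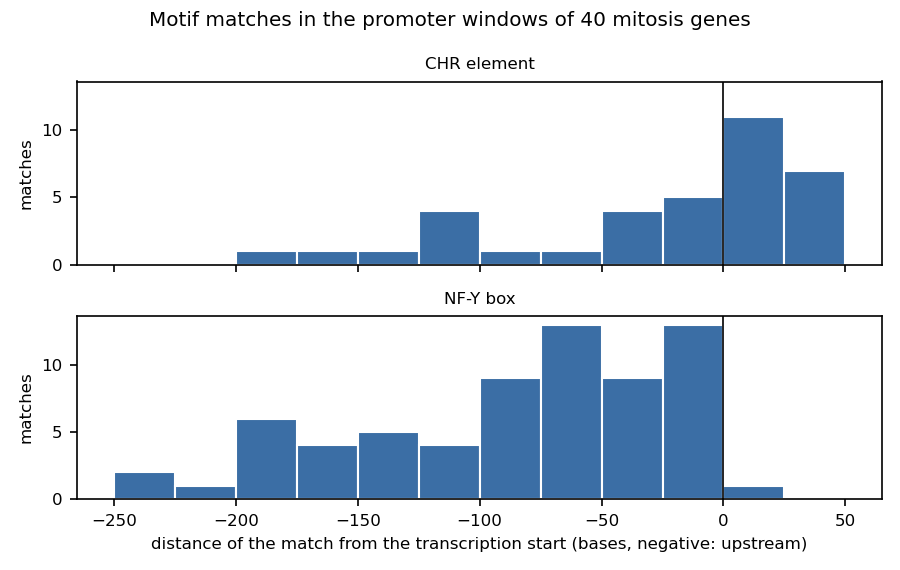
Number of matches (vertical axes) to the CHR letters (top) and the NF-Y letters (bottom) by distance from the transcription start in bases (horizontal axis, negative upstream), in 25-base bins over the windows of 40 mitosis genes. The CHR matches gather around the start, at a median of -1 base, and the NF-Y matches upstream of it, at a median of -71 bases.

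MkP also had higher levels than LT-HSC, with fewer calls. In WT, 26 of the 47 rose and none fell, where 2.32% of the 14281 genes tested rose. In V617F, 2 rose, where 0.378% of genes tested did. For 38 members every WT MkP library lay above every WT LT-HSC library, against 8.39% of genes tested, and in V617F this held for 46, against 17% of genes tested. The median fold change was 3.05 in WT and 2.16 in V617F, and the median log2 fold change of all genes tested was -0.20 and -0.06. Across both genotypes together, 34 members had every MkP library above every LT-HSC library, against 2.88% of genes tested. The WT count was 35 without LT-HSC WT library 30 and 15 without MkP WT library 30. Over all genes and either direction, 1626 and 1120 were called in those fits. Both V617F calls were lost without any 1 of the 6 libraries. Leaving out MkP WT library 31, with 17 called (1001 over all genes), also moved the WT count by over 1.5 times. With only the groups compared in the fit, the WT count was 0, where 14 of 12291 genes were called. The V617F count was then 43, where 2972 of 13554 genes were called. Sample weights gave 16 and 45, where 669 and 5320 of 14281 genes were called. Which genotype had more calls therefore depended on the fit, for all genes as for the 47.

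The gene with the smallest p in both genotypes was Ccnb1. It was at 37.1, 27.3 and 65.6 CPM in WT LT-HSC and at 226, 268 and 260 CPM in WT MkP, a 5.80-fold rise (log2 2.54 ± 0.34, adjusted p = 0.00118). In V617F it was at 53.8, 50.5 and 62.3 CPM in LT-HSC and at 174, 178 and 172 CPM in MkP, a 3.15-fold rise (log2 1.66 ± 0.33, adjusted p = 0.0377). Mki67, the other gene called in both genotypes, rose 4.14-fold in WT, from 52.9, 79.8 and 113 CPM to 307, 372 and 338 CPM, and 2.79-fold in V617F, from 180, 120 and 186 CPM to 406, 494 and 457 CPM. For both genes the MkP libraries lay well above all LT-HSC libraries. Top2a went from 128, 113 and 158 CPM to 453, 637 and 456 CPM in WT (3.88-fold, adjusted p = 0.0038), and in V617F from 164, 130 and 267 CPM to 471, 536 and 422 CPM without passing (adjusted p = 0.0764). Plk1 rose 3.13-fold in WT, from 58.7, 93.4 and 41.2 CPM to 184, 223 and 198 CPM (adjusted p = 0.0137).

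The checkpoint and anaphase genes had the widest range of fold changes. Bub1 was at 4.11, 20.7 and 11.5 CPM in WT LT-HSC and at 73.6, 112 and 131 CPM in WT MkP, an 8.72-fold rise (log2 3.12 ± 0.61, adjusted p = 0.00947). Bub1b, which encodes BubR1, rose 6.73-fold in WT (adjusted p = 0.00257). Bub3, at 1827, 384 and 464 CPM in WT LT-HSC and 758, 608 and 575 CPM in WT MkP, was 0.726 times its LT-HSC level (adjusted p = 0.618), its value in LT-HSC WT library 30 lying far above all others. Of the 9 spindle genes 8 rose in WT, Nusap1, a microtubule bundling protein, by 4.52-fold, Hmmr by 4.28-fold and Kif11 by 5.84-fold. Kinetochore gene Nuf2, part of the complex that grips microtubules, rose 6.19-fold from 9.40, 27.9 and 34.7 CPM to 150, 116 and 180 CPM. None of the 4 passenger complex genes passed in either genotype. Aurkb was 2-fold higher in WT (adjusted p = 0.0666) and 2.14-fold higher in V617F (adjusted p = 0.177), and Cdk1 was 1.60-fold higher in WT (adjusted p = 0.454), with LT-HSC WT library 30 at 294 CPM beside 45.0 and 82.3. Kif23, a kinesin of the central spindle, was the other gene with a WT value below 0, at log2 -0.25 ± 0.41.

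**Figure D4:**
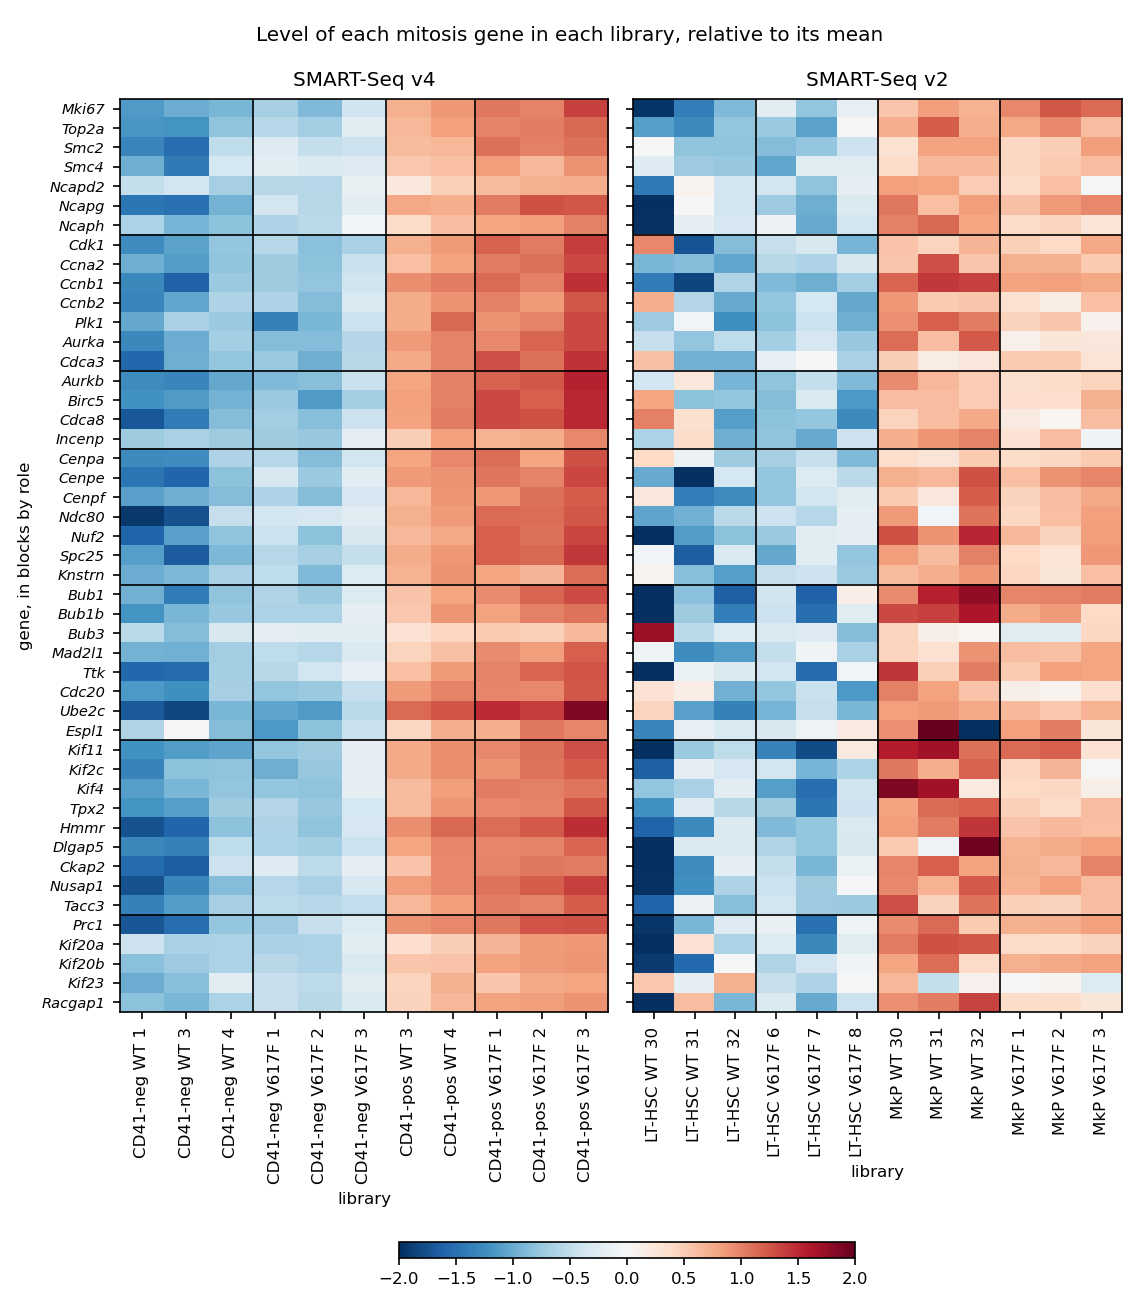
Level of each mitosis gene (rows, in blocks by role) in each library (columns), as log2(CPM + 1) minus the gene's mean over the libraries of its protocol, from blue (lower) over white to red (higher), with colours ending at 2 on either side. CD41-positive columns are red throughout. V617F library 3 has the highest level of its group for 43 of the 47 genes in each CD41 fraction. LT-HSC WT library 30 mixes deep blue (Bub1 at 4.11 CPM) with deep red (Bub3 at 1827 CPM).

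V617F CD41-negative HSC had more mitosis RNA than WT CD41-negative HSC. Of the 47, 15 rose with an adjusted p under 0.05 and none fell, where 5.48% of genes tested rose and 7.94% fell. For 23 members every V617F library lay above every WT library, against 16% of genes tested, and for none did every V617F library lie below, against 14.3%. The fold change was above 1 for 45 members, with a median of 1.35 (median log2 0.43, range -0.35 to 0.95), beside -0.01 over all genes tested. The count moved with every library left out, from 1 without WT library 1 or 3 or V617F library 1 or 3, over 2 without V617F library 2, to 36 without WT library 4. It was 1 with only the groups compared and 2 without V617F library 2 of both fractions, the libraries labelled male. Calls over all genes, in either direction, moved too. They were 6021 without WT library 4 and 282 to 620 in the other single omissions. With only the groups compared they were 269, and without the libraries labelled male 366. The WT libraries with high Lars2, 1 and 3, were the low ones: WT library 4 was the highest of the WT libraries for 41 of the 47 genes. Markers of other cells moved with genotype too. Of 16 erythroid markers 9 fell and none rose, with sums of 1916 to 4040 CPM in WT and 1789 to 1994 in V617F, where Slc4a1 was at 0. Of 16 megakaryocyte and platelet markers 6 fell, with sums of 2510 to 3113 CPM in WT and 1930 to 2018 in V617F, Gp6 being at 0 in both. Of 12 monocyte and macrophage markers 5 fell and 1 rose, with sums of 411 to 497 CPM in WT and 405 to 443 in V617F, where Adgre1 was at 0. The granulocyte marker sum was 116 to 591 CPM in WT and 169 to 204 in V617F, and Ddx3y differed as given above. Compared with library 4 alone, no member was called (4 with an unadjusted p under 0.05) and the median log2 fold change was 0.15, positive for 42 genes. Whether these markers or libraries 1 and 3 took part in the result was not tested beyond leaving the libraries out.

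By role, the genes that rose were 3 of 7 for chromosome structure, 2 of 4 for the passenger complex, 3 of 7 for the kinetochore, 2 of 8 for checkpoint and anaphase, 4 of 9 for the spindle and 1 of 5 for cytokinesis. None of the 7 cyclins and kinases of mitotic entry passed. Ncapg had the smallest p, at 25.2, 24.4 and 35.8 CPM in WT and 54.1, 47.3 and 59.6 CPM in V617F, a 1.89-fold rise (log2 0.91 ± 0.15, adjusted p = 0.00642). Ncapg kept its call without any single library, with log2 fold changes of 0.81 to 1.11, and lost it without WT libraries 1 and 3 together, at 0.57. Of the next genes by p, Cenpe lost its call in 4 of 6 omissions of a single library, and Nusap1, Ttk, Prc1, Kif11, Top2a and Spc25 lost theirs in 5 of 6. Top2a was at 142, 140 and 183 CPM in WT and at 216, 200 and 270 CPM in V617F (1.47-fold, adjusted p = 0.0343). Smc2, the condensin ATPase, rose 1.59-fold (adjusted p = 0.0494), with WT library 4 at 89.96 CPM just under the lowest V617F library at 91.6. Mki67 was at 83.7, 92.1 and 97.6 CPM in WT and 117, 99.8 and 140 CPM in V617F and did not pass (1.31-fold, adjusted p = 0.0819).

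Among kinetochore genes, Cenpe, a motor that carries chromosomes to the spindle middle, was at 20.1, 18.3 and 31.7 CPM in WT and at 45.5, 33.7 and 49.1 CPM in V617F (1.83-fold, log2 0.87 ± 0.20, adjusted p = 0.0226). Spc25 rose 1.55-fold and Nuf2 1.56-fold, and their partner Ndc80 had the largest fold of all, 1.93, without passing (adjusted p = 0.054), its WT libraries lying at 9.63, 11.2 and 28.5 CPM. Ttk, the kinase that starts checkpoint signalling, rose 1.84-fold, from 11.4, 11.7 and 22 CPM to 24.0, 27.2 and 31.9 CPM (adjusted p = 0.0302), and Mad2l1, which holds Cdc20 in check, rose 1.34-fold (adjusted p = 0.0498). Nusap1 was at 33.1, 45.0 and 61.3 CPM in WT and at 75.8, 71.9 and 90.3 CPM in V617F, a 1.71-fold rise (adjusted p = 0.0256). The other spindle genes that rose were Kif11 (1.52-fold), Hmmr (1.71-fold) and Tacc3, a centrosome protein (1.41-fold). Prc1, which bundles the central spindle, rose 1.76-fold, from 37.0, 42.6 and 72.0 CPM to 74.8, 89.3 and 103 CPM (adjusted p = 0.0303). Aurkb rose 1.40-fold and Cdca8 (borealin) 1.57-fold. For all of these but Nuf2, WT library 4 lay below the lowest V617F library.

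Of the members set out in every comparison, 7 did not pass here. Besides Mki67, these were mostly genes of mitotic entry and of the checkpoint. Cdk1 was 1.27-fold higher (adjusted p = 0.105), with WT library 4 at 62.3 CPM between V617F libraries at 59.5 and 71.8. Ccnb1 was 1.48-fold higher (adjusted p = 0.0747), and Plk1, at 21.7, 28.6 and 26.6 CPM in WT and 17.1, 23.5 and 33.1 CPM in V617F, was level (log2 -0.06 ± 0.22, adjusted p = 0.857). Espl1 was the only other gene with a value below 0 (log2 -0.35 ± 0.23, adjusted p = 0.277). Bub1 was 1.44-fold higher (adjusted p = 0.0582), Bub3 1.27-fold (adjusted p = 0.0872) and Cdc20 1.26-fold (adjusted p = 0.14), none of them past the threshold.

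In CD41-positive HSC all 47 fold changes were above 1 and none passed. The median log2 fold change was 0.31 (range 0.08 to 0.51), beside 0.03 over all genes tested, and 15 of 47 had an unadjusted p under 0.05. Of the genes tested, 0.221% rose and 0.94% fell. For 34 members every V617F library lay above both WT libraries, against 23.9% of genes tested, and for none below, against 17.8%. The smallest p belonged to Mad2l1, at 127 and 140 CPM in WT and 181, 167 and 216 CPM in V617F (1.41-fold, log2 0.49 ± 0.14, adjusted p = 0.159). Ccna2, the cyclin of replication and mitotic entry, was at 303 and 348 CPM in WT and 412, 430 and 497 CPM in V617F (1.37-fold, adjusted p = 0.239). Birc5 was at 149 and 171 CPM in WT and 212, 195 and 243 CPM in V617F (1.35-fold, adjusted p = 0.289). The groups of these genes did not overlap, with 2 WT libraries against 3. Cdk1, Ncapg, Kif20a, Aurkb and Bub1, next by p, were 1.31- to 1.39-fold higher, with adjusted p from 0.31 to 0.385. With DESeq2 and with limma-voom none passed either, whereas 5 passed when the other fraction was left out of the fit and 18 with sample weights. Over all genes, 520 and 1854 passed in the latter fits. Of the other fixed members, Mki67 was at log2 0.36, Top2a at 0.31, Ccnb1 at 0.24, Plk1 at 0.12, Cdc20 at 0.15 and Bub3 at 0.19. Markers of other cells also differed between these groups. Of 16 erythroid markers 5 fell and none rose, with sums of 2623 to 2742 CPM in WT and 2475 to 2720 in V617F, and 2 of 10 endothelial and stromal, 1 of 12 monocyte and 1 of 15 granulocyte markers fell. Their part in the values of the mitosis genes was not tested.

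Whether V617F acted differently in the CD41 fractions was tested as the difference of its log2 effects, CD41-positive minus CD41-negative. None of the 47 passed, nor did any of the 14467 genes (0%), and none of the 47 had an unadjusted p under 0.05. The median difference was -0.15, and single libraries left out moved it from -0.34 (without CD41-negative WT library 4) to -0.03 (without CD41-negative V617F library 3). It was also moved by over 1.5 times, to -0.04, -0.08, -0.24 and -0.08, without CD41-negative WT library 1 or 3 and CD41-positive WT library 3 or 4. Ncapg had the smallest p, at -0.47 ± 0.22 (adjusted p = 0.566), followed by Espl1 at 0.69 ± 0.34, Cenpe at -0.60 ± 0.29 and Prc1 at -0.55 ± 0.31. Without CD41-negative WT library 4, 11 of the 47 were called in this test, where 1766 genes were called over all genes. Without any other CD41-negative library or any CD41-positive V617F library no gene was called, members included.

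Within the V617F groups of the CD41 fractions 1 library led for most genes. V617F library 3 was the highest of its group for 43 of the 47 genes in CD41-negative HSC and for 43 in CD41-positive HSC. WT library 4 lay above WT library 3 for 43 genes in the negative and 46 in the positive fraction. Across all genes tested, deviations from the group mean were correlated between V617F libraries of equal number, at r = 0.301, 0.419 and 0.298 for numbers 1, 2 and 3. For WT libraries 3 and 4 this was r = 0.0429 and 0.0242. By their leading libraries, the mitosis genes moved together within groups of the CD41 fractions, and they are not 47 separate observations. The SMART-Seq v2 groups were less uniform. WT libraries 30, 31 and 32 were the highest for 16, 17 and 14 genes in LT-HSC and for 12, 15 and 20 in MkP. The V617F libraries, by rising number, were the highest for 4, 16 and 27 in LT-HSC and for 1, 19 and 27 in MkP. The coefficient of variation of a gene between libraries had a median of 8.88% to 22.1% over the groups, except in WT LT-HSC, where it was 50.3% and reached 95.6% for Cdk1.

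In LT-HSC the mitosis genes showed no common direction between genotypes. None of the 47 passed, where 0.028% of the 14281 genes tested rose and 0.035% fell, and 5 had an unadjusted p under 0.05. The fold change was above 1 for 26 and the median log2 fold change was 0.04, beside -0.05 over all genes tested. Every V617F library lay above every WT library for 3 members, against 13.6% of genes tested, and for none below, against 5.63%. Mki67 was 1.98-fold higher, at 52.9, 79.8 and 113 CPM in WT and 180, 120 and 186 CPM in V617F (log2 0.99 ± 0.32, adjusted p = 0.214), and Nuf2 and Ccna2 were the other 2 without overlap. Cdca8 was 0.418 times the WT level (adjusted p = 0.245), with WT libraries at 580, 361 and 133 CPM and V617F libraries at 163, 168 and 118. Bub3 was 0.459 times the WT level (adjusted p = 0.4), with WT libraries at 1827, 384 and 464 CPM and V617F libraries at 454, 469 and 305. Bub1 was 2.24-fold higher (adjusted p = 0.44), Nusap1 1.77-fold (adjusted p = 0.385), Cdc20 0.62 times (adjusted p = 0.444) and Cenpa, the centromeric histone, 0.663 times the WT level (adjusted p = 0.484). Without LT-HSC WT library 30, the log2 fold change went from -1.12 to -0.04 for Bub3, from -1.26 to -0.70 for Cdca8, from -0.69 to -0.44 for Cdc20, from -0.59 to -0.26 for Cenpa and from 0.99 to 0.63 for Nuf2. Of the other fixed members, Top2a was at log2 0.49, Cdk1 at -0.45, Ccnb1 at 0.36, Plk1 at -0.13 and Aurkb at -0.43. All 4 passenger complex genes were below WT, at a median log2 of -0.55. The granulocyte marker sums given above also differed between these groups. WT LT-HSC libraries had 34642290 to 49191435 counts over 12876 to 13805 genes, against 17620485 to 21980859 counts over 15298 to 15697 genes in V617F. The part of these differences in the values was not tested. Sex and genotype, as labelled, cannot be told apart in LT-HSC.

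In MkP the values pointed down, and none passed. The fold change was below 1 for 43 of the 47, with a median log2 of -0.30 (range -1.11 to 0.42), beside 0.08 over all genes tested. Of the genes tested, 1.62% rose and 0.126% fell, and 2 of the 47 had an unadjusted p under 0.05. Every V617F library lay below every WT library for 16 members, against 9.99% of genes tested, and above for 1, Mki67, against 21%. The smallest p belonged to Aurka, the centrosome kinase, at 239, 170 and 258 CPM in WT and 118, 131 and 129 CPM in V617F (log2 -0.82 ± 0.28, adjusted p = 0.149). The groups did not overlap, and with DESeq2 1 member was called, beside 1137 of the 14281 genes. Kif4, a chromosome-bound kinesin, was at 189, 166 and 58.6 CPM in WT and 67.6, 68.6 and 55.3 CPM in V617F (log2 -1.11 ± 0.45, adjusted p = 0.247), its WT library 32 lying among the V617F libraries. Plk1 was at 184, 223 and 198 CPM in WT and 135, 143 and 103 CPM in V617F (log2 -0.66 ± 0.34, adjusted p = 0.385). Bub1b and Cdc20 were at log2 -0.77 and -0.63 with adjusted p of 0.399 and 0.429, and Tpx2, Ccnb1 and Incenp at -0.56, -0.52 and -0.58. Mki67 went the other way, at 1.33-fold (adjusted p = 0.644). Of the other fixed members, Top2a was at log2 -0.11, Cdk1 at -0.01, Aurkb at -0.33, Bub1 at -0.47 and Bub3 at -0.20. WT MkP libraries held the high granulocyte marker sums given above, and they had 30927779 to 41128677 counts over 11483 to 12463 genes, against 22143163 to 33847737 counts over 14634 to 15167 genes in V617F MkP. Of the 15 granulocyte markers, all with counts in both groups, 1 fell and none rose, and 13 had an unadjusted p under 0.05. For 10 of them every V617F library lay below every WT library, against 9.99% of genes tested. Of 16 erythroid markers 2 fell, of 13 lymphoid markers 1 fell, and of 10 endothelial and stromal markers 1 rose. No megakaryocyte or monocyte marker passed. Whether these markers took part in the values was not tested.

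**Figure D5:**
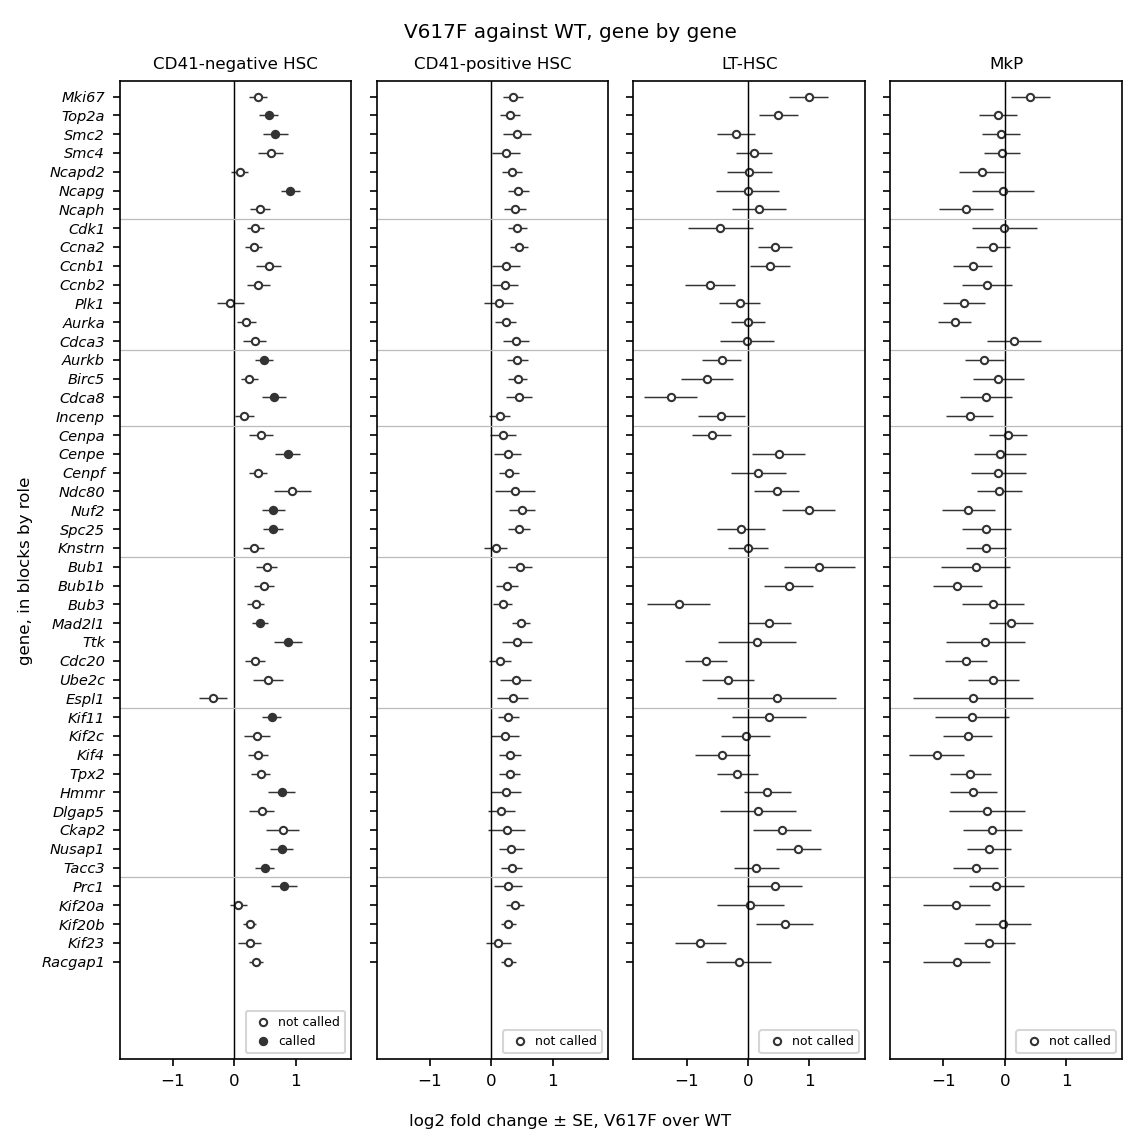
Log2 fold change ± SE (horizontal axes) of each mitosis gene (rows, in blocks by role) between V617F and WT in the 4 populations, filled where the adjusted p was under 0.05. The 15 filled points are all in CD41-negative HSC, the points of CD41-positive HSC all lie right of 0, and 43 of those of MkP lie left of it.

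The difference of V617F effects, MkP minus LT-HSC, had a median log2 of -0.53 (-0.27 without LT-HSC V617F library 8), and none of the 47 passed, where 0.455% of genes tested did. Nuf2 had the smallest p (log2 -1.59), followed by Bub1b, Nusap1 and Aurka, with adjusted p from 0.444 to 0.591 and 2 of the 47 with an unadjusted p under 0.05.

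Other genes of cell division were read from lists of their own. Of 52 further mitosis genes, 48 rose from CD41-negative to CD41-positive HSC in each genotype. Over all genes tested, 15.7% rose with CD41 in WT and 16.4% in V617F, which holds for the other lists below too. Spc24, a kinetochore gene, rose by log2 1.97 ± 0.15 in WT and by a like amount, 2.003 ± 0.135, in V617F. In V617F CD41-negative HSC 14 of the 52 rose against WT and 1 fell, with a median log2 of 0.44, close to that of the 47. Of all genes tested, 5.48% rose there and 7.94% fell. Pbk rose by log2 1.02 ± 0.21 (adjusted p = 0.015) and Cenpi by 0.65 ± 0.13 (adjusted p = 0.0154). None of the 52 passed between genotypes in the other populations. Of 38 DNA replication genes, 33 rose from CD41-negative to CD41-positive HSC in WT and 38 in V617F, with a lower median than the mitosis genes (log2 0.87 and 1.12), Rrm2, a subunit of ribonucleotide reductase, having the smallest p in both. In V617F CD41-negative HSC 4 of the 38 rose against WT, Ccne2 and Tyms with the smallest p, beside the 5.48% of all genes tested. Without CD41-negative WT libraries 1 and 3, none of the 52 and none of the 38 was called, with 5 and 3 at an unadjusted p under 0.05. Of 23 genes for regulators of mitosis genes, such as B-Myb, E2F and DREAM subunits, 13 rose with CD41 in WT and 11 in V617F, where 1 fell. E2f8 rose by log2 2.12 ± 0.22 in WT and 2.11 ± 0.20 in V617F, and in V617F Mybl2, which encodes B-Myb, had the next smallest p, at log2 1.49 ± 0.16.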

How the data were processed

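The authors deposited 1 table of raw counts, with rows named by Entrez identifier and symbol and, per the file headers, the length of each gene. Per the submitters' processing notes, reads were aligned to mm10 with STAR 2.5.2a, and R 3.4.2 and limma were used. The counting tool, annotation and strand setting are not given in the sources used here. Ccnb1, Ccnb2 and Kif4 have annotated pseudogene copies, and how shared reads were counted is not known.

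Members and lists were chosen with earlier results of these data known. The SMART-Seq v4 (11) and v2 (12) libraries were fitted separately with edgeR 4.0.16 under R 4.3.3. After TMM scaling and the default filterByExpr filter (14467 and 14281 genes kept), each group had its own mean, and contrasts were tested by quasi-likelihood F, with Benjamini-Hochberg adjustment over all genes of each of 10 contrasts and a threshold of 0.05. The script was tested on simulated counts. SE are the log2 fold change divided by the root of F, and p-values measure only the spread between libraries, which may be technical. All rows had an Entrez identifier and 11 had no symbol. The members named were 9 fixed ones and the 8 with the smallest p per contrast (4 for differences), of which several are given by fold alone. Of other lists, the 2 genes with the smallest p may be named.

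Alternatives were DESeq2 1.42.0, limma-voom (limma 3.58.1), scaling by RLE, a fit without the filter and a stricter one (5 CPM or more in 3 libraries). Others were only the groups compared, each library left out, and the replicate number as a block. Sex as a covariate and the omission of the CD41 libraries labelled male were also run. Sample weights and the omission of CD41-negative WT libraries 1 and 3 were chosen after seeing the data. Equal numbers were taken to pair the V617F CD41 libraries, whose deviations correlated at 0.301, 0.419 and 0.298, and no others.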

Additional observations from a re-analysis of the deposited data

Results flagged for a closer look

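For 9 of the 47 genes every V617F library lay above every WT library in a CD41 fraction and below every WT library in MkP. The difference between those effects was not tested, because the populations were made with different protocols, and none of the genes passed in MkP. In CD41-negative HSC and MkP, the log2 fold changes were 0.42 and -0.63 for Ncaph, 0.49 and -0.33 for Aurkb, 0.48 and -0.77 for Bub1b, 0.78 and -0.51 for Hmmr, and 0.36 and -0.79 for Racgap1. In CD41-positive HSC, where none of the genes passed, they were 0.39 for Ncaph, 0.43 for Aurkb and 0.28 for Racgap1. The remaining genes showed the pattern between CD41-positive HSC and MkP alone, at 0.51 and -0.60 for Nuf2, 0.40 and -0.19 for Ube2c, 0.30 and -0.56 for Tpx2, and 0.39 and -0.79 for Kif20a. The pattern covers 5 of 47 genes (10.6%) for CD41-negative HSC and 7 of 47 (14.9%) for CD41-positive HSC, beside 1.19% and 2.52% of the 13908 genes tested in both protocols. More of the 47 than of all genes were higher in the CD41 fractions and lower in MkP taken singly, and the overlap itself was not tested.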

How the results depend on the processing

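The rise of all 47 genes from CD41-negative to CD41-positive HSC stayed within 46 to 47 called in WT and at 47 in V617F under every alternative run. Numbers of genes in brackets below count all genes called, in either direction, and not the members alone. The V617F count in CD41-negative HSC was 15 of 47, where 793 genes rose and 1148 fell. It was 23 with DESeq2 (3380 genes) and 26 with sample weights (3964 genes). It was 1 with only the groups compared (269 genes) and 2 without the CD41 libraries labelled male (366 genes). Without CD41-negative WT libraries 1 and 3 it was 0, where 1 WT library remained and was assumed to vary like the other groups. With single libraries left out the count ran from 1 without WT library 1 (620 genes) to 36 without WT library 4 (6021 genes). It was 1 without WT library 3 (348 genes), V617F library 1 (303 genes) or V617F library 3 (282 genes). Without V617F library 2 it was 2 (403 genes). In CD41-positive HSC it was 5 with only the groups compared (520 genes) and 18 with sample weights (1854 genes), against 0. In MkP 1 member was called lower with DESeq2 (1137 genes), 2 with only the groups compared (762 genes) and 1 with sample weights (588 genes). Between MkP and LT-HSC in WT, 26 became 0 with only the groups compared (14 genes) and 16 with sample weights (669 genes). With single libraries left out that count ran from 15 (1120 genes) to 35 (1626 genes). In V617F, 2 became 9 with DESeq2 (693 genes) and 1 with no filter (150 genes). The V617F count was 43 with only the groups compared (2972 genes), 45 with sample weights (5320 genes) and 0 without any 1 library. For the difference of V617F effects between CD41 fractions, sample weights called 2 (496 genes). Leaving out single libraries gave 0 to 11, the latter without CD41-negative WT library 4 (1766 genes). The median log2 fold change of LT-HSC turned from 0.04 to -0.0396 without V617F library 8 and was 0.172 without WT library 31, and limma-voom gave 0.22. The cause of these changes was not tested.

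With the replicate number as a block, 40 of the 47 were called in CD41-negative HSC and 5 in CD41-positive HSC between genotypes. Over all genes, 3983 and 188 were called there. The numbers did not pair the libraries of the genotypes (r = -0.117, -0.0369 and -0.0662). Between CD41 fractions 47 were called in each genotype, beside 4769 of all genes in WT and 5771 in V617F. Between WT MkP and LT-HSC 0 were called, but that fit held the WT libraries alone, which gave 0 without the block too (r = -0.0328, -0.00603 and 0.0231). In the difference between CD41 fractions 0 were called with the block, as without it. No paired analysis was possible for the LT-HSC and MkP genotype comparisons because they share fewer than 2 numbers. Over 72 pairs of a named gene and a comparison, 968 of 1088 values under an alternative kept direction and side of the threshold, 84 lost the call, 36 gained it and 0 reversed.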
